A study of Mus musculus with 14 samples.

Results

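The 40 genes described here encode antioxidant and glutathione enzymes and the regulators NRF2 (Nfe2l2) and KEAP1. They were chosen by gene symbol from the platform annotation, with 1 probe set per symbol. Of the 40 genes, 38 were measured, out of 19505 symbols on the array, and Prdx5 and Prdx6 are not analysed here. The cells were mouse hematopoietic progenitor cells (HPCs), bone marrow cells that lacked lineage markers by magnetic separation, which were kept 48 h in culture and then given a retrovirus. The virus came from the packaging line GP+E86 and carried either N-Myc and a yellow fluorescent protein (MSCV-NMyc-IRES-YFP, here NMyc) or the fluorescent protein alone (MSCV-IRES-YFP, here Ctrl). The mice were homozygous (Hom, Polg mut/mut), heterozygous (Het, Polg wt/mut) or wild type (WT, Polg wt/wt). Polg encodes the catalytic subunit of DNA polymerase gamma, the enzyme that replicates the mitochondrial genome. The mutant allele, the age of the mice and any sorting for the fluorescent protein are not stated in the labels. There were 2 arrays each for Hom-NMyc, Het-NMyc, WT-NMyc and Hom-Ctrl and 3 each for Het-Ctrl and WT-Ctrl, labelled as biological replicates. The labels do not name the animals, so p-values reflect the spread among these arrays and may miss variation between animals.

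Superoxide dismutases turn superoxide into hydrogen peroxide, which catalase, peroxiredoxins and glutathione peroxidases then remove. Peroxiredoxins are recharged by thioredoxin and thioredoxin reductase, and glutathione peroxidases draw on glutathione, which is made by glutamate-cysteine ligase and glutathione synthetase and recycled by glutathione reductase. Glutathione transferases attach glutathione to reactive compounds. The transcription factor NRF2, held in check by KEAP1, switches on many of these genes through a short DNA motif called the antioxidant response element. Mitochondria are a main source of superoxide and hold their own set of these enzymes.

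Promoter sequences are shown for 4 members because they carry matches to the antioxidant response element core and moved with N-Myc in both directions: Prdx1, Gclm and Txnrd1 rose and Srxn1 fell. The windows run from 250 bases before to 50 bases after the start of the gene and come from RefSeq (GRCm38.p6), where 35 of the 40 genes had at least 1 window. Capitals mark matches to the core TGACNNNGC, or to its form TGAGNNNGC, on either strand, and bases are counted from 1 at the 5′ end of the window. The windows lie on the plus strand at chr4:116685349-116685648 for Prdx1, chr3:122245307-122245606 for Gclm, chr10:82858956-82859255 for Txnrd1 and chr2:152105274-152105573 for Srxn1.
Prdx1: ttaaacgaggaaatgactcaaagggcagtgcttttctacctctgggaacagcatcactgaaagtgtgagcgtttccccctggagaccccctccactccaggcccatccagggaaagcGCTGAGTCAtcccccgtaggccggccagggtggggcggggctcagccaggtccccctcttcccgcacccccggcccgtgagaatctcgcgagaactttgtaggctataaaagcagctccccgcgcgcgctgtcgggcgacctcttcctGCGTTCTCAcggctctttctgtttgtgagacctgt
Gclm: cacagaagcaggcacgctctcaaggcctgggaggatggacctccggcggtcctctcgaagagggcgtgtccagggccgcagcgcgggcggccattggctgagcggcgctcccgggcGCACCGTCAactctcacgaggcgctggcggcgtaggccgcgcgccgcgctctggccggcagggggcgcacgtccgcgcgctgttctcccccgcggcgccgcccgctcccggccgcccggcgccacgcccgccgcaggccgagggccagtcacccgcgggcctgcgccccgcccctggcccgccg
Txnrd1: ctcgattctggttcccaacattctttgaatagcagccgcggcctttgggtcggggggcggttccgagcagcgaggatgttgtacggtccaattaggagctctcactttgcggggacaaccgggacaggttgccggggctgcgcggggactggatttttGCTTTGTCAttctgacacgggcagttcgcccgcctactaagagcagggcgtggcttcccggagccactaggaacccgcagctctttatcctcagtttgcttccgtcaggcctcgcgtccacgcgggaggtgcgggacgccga
Srxn1: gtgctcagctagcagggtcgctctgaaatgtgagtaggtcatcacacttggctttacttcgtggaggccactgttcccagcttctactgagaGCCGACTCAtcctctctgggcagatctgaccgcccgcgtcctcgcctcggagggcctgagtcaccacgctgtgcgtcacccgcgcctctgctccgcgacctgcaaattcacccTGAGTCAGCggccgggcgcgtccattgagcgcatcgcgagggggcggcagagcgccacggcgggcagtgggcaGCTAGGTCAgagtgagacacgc
The Prdx1 window held TGACNNNGC at bases 118 to 126 and TGAGNNNGC at bases 266 to 274. TGACNNNGC stood at bases 117 to 125 of the Gclm window and at bases 159 to 167 of the Txnrd1 window shown, 1 of 3 for that gene, and the others held neither form. The Srxn1 window held TGAGNNNGC at bases 93 to 101 and 206 to 214 and TGACNNNGC at bases 279 to 287. No match overlapped another in these windows. Across the 47 windows of the members, 8 held TGACNNNGC (17.0%, against 12.4% of all 32851 windows) and 6 held TGAGNNNGC (12.8%, against 17.6%). Counted by gene, either form was present for 7 of 20 members called higher with N-Myc, 2 of 6 called lower and 2 of 8 not called, against 30.8% of all genes with a window. The E-box CACGTG, the motif to which MYC proteins bind as dimers with MAX, was present in 2 of the 47 windows, those of Glrx2 and Prdx4 (4.26%, against 7.15% of all windows). A match describes the letters of the window only.

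Expression is given on the log2 scale of the deposited values, on which a difference of 1 is a 2-fold change. Array by array, values within a group follow the replicate number, so the first Hom-Ctrl value always belongs to the array labelled Hom-Ctrl replicate 1. That array went against its label: its Mycn value was 9.77. The NMyc arrays stood at 12.38 and 12.28 in Hom-NMyc, 12.27 and 12.15 in Het-NMyc and 12.17 and 12.30 in WT-NMyc, and the other Ctrl arrays at 7.61 in Hom-Ctrl, 7.53, 7.50 and 7.65 in Het-Ctrl and 7.58, 7.76 and 7.43 in WT-Ctrl. Results that rest on Hom-Ctrl are therefore given with and without it. Over all arrays Mycn rose by 4.31 with the NMyc vector (SE 0.23, limma adjusted p = 2.64e-09). Pairs of arrays correlated at 0.958 to 0.994 across the tested probe sets, and the number of arrays limits the precision. A member counts as bright if it exceeded the 95th percentile of the negative control probe sets in at least 2 arrays. This held for 31 of the 38 members and 9292 of 22206 tested probe sets. The 7 dim members were Sod3, Gpx7, Gsta4, Gstm5, Gstk1, Gstt1 and Mgst3, and Sod3 lay above the median of the negative controls in 5 of 14 arrays.

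With N-Myc, most antioxidant enzymes were higher and a smaller group, led by the membrane-bound glutathione transferases Mgst1 and Mgst2, was lower. Averaged over the 3 genotypes, 21 of the 38 members rose, 6 fell and 11 did not pass the test. The strongest rises were those of Gsto1, Glrx5, Txn2, Gclc, Prdx3 and Prdx1, between 0.90 and 1.40. A call means an adjusted p under 0.05 by limma with Benjamini-Hochberg adjustment over all 22206 probe sets, of which 18.2% were called higher and 15.5% lower. Among bright probe sets 37% were called higher and 24.2% lower, beside 20 and 5 of the 31 bright members. The median difference was 0.314 over the members, -0.022 over all probe sets and 0.085 over the bright ones. Without the array labelled Hom-Ctrl replicate 1, 18 members rose and 5 fell, and the calls of Cat, Gpx1, Keap1 and Gstk1 were lost.

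**Figure D1:**
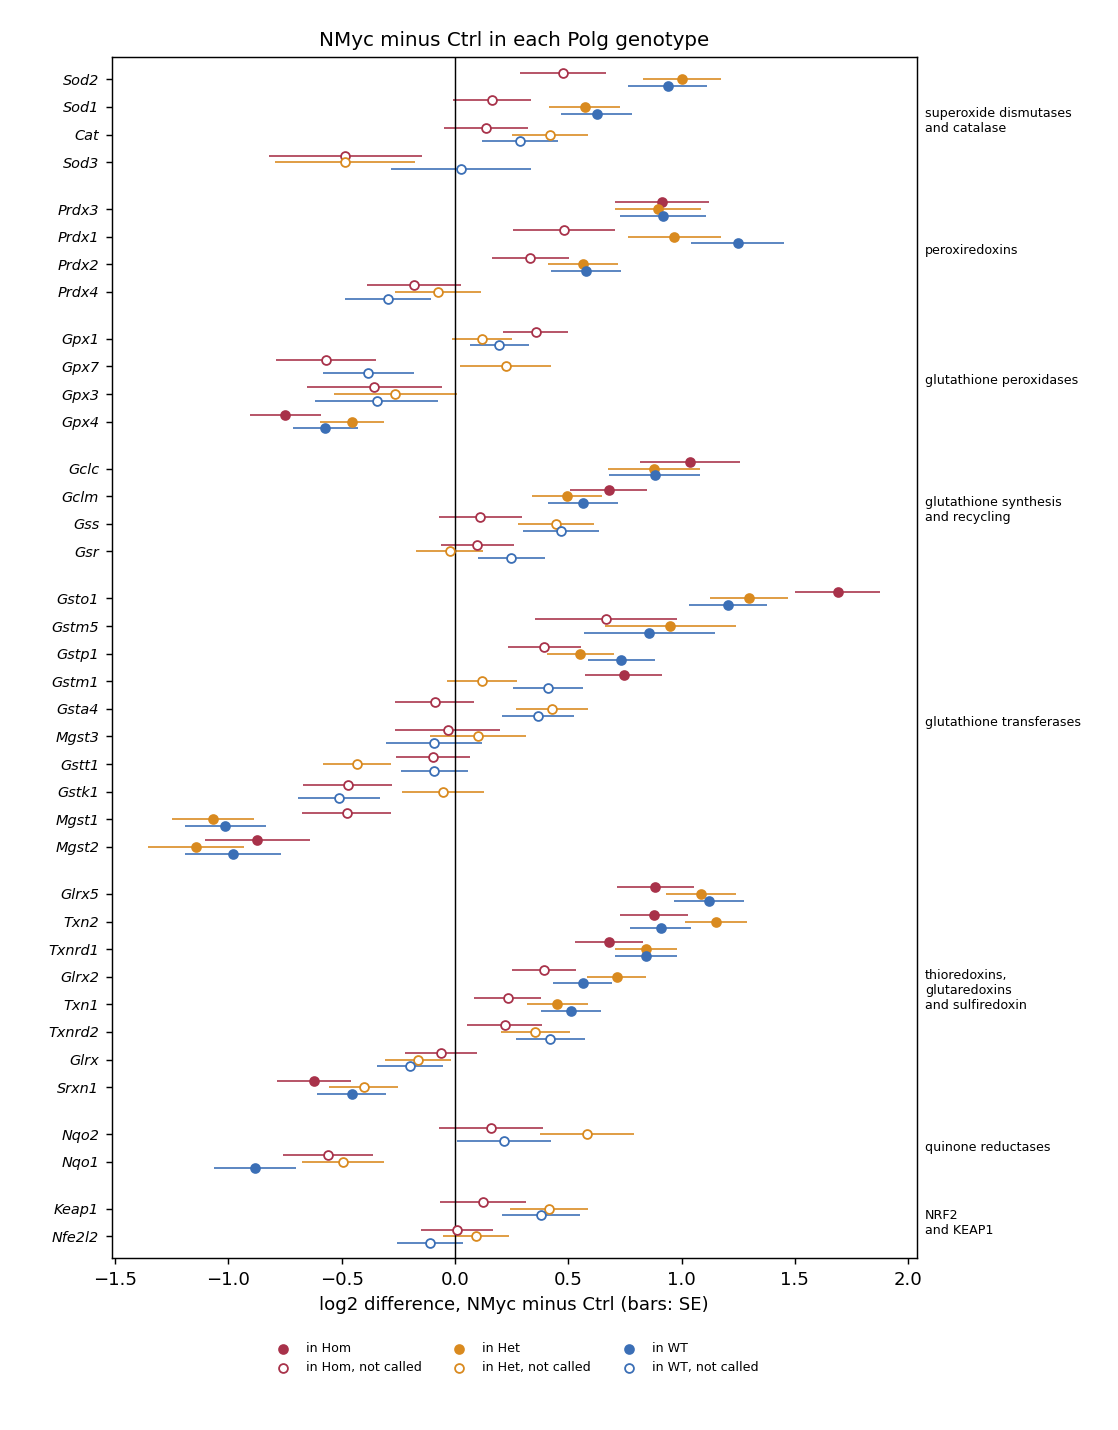
Difference in log2 expression, NMyc minus Ctrl, for each of the 38 measured members in Hom, Het and WT cells, grouped by role. Points are the fitted differences, bars are 1 SE, and filled points passed the test. Gsto1, Glrx5, Txn2, Prdx3, Gclc, Gclm and Txnrd1 lie to the right with filled points in all 3 genotypes, while Gpx4 and Mgst2 lie to the left in all 3.

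Of the 4 superoxide dismutases and catalase, 3 rose. Sod2, the manganese superoxide dismutase of mitochondria, was at 10.16 and 10.03 in Hom-NMyc, 10.18 and 10.03 in Het-NMyc and 10.01 and 10.03 in WT-NMyc, against 9.91 and 9.33 in Hom-Ctrl, 9.21, 9.11 and 8.99 in Het-Ctrl and 9.27, 9.06 and 8.90 in WT-Ctrl. Every NMyc array was above every Ctrl array, and the array labelled Hom-Ctrl replicate 1, at 9.91, was the nearest to the NMyc arrays. Sod2 rose by 0.81 (SE 0.10, limma adjusted p = 1.3e-05), and by 0.90 without that array. Sod1, the copper and zinc enzyme of the cytosol, rose by 0.45 (SE 0.09), also with no overlap between NMyc and Ctrl arrays. Catalase, the peroxisomal enzyme encoded by Cat, rose by 0.28 (SE 0.10, limma adjusted p = 0.0413), and the call was lost without Hom-Ctrl replicate 1 (adjusted p = 0.149). Sod3, the secreted enzyme, was near background and its difference of -0.31 did not pass.

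Among the 4 measured peroxiredoxins, 3 rose and the median difference was 0.696. The mitochondrial Prdx3 was at 9.93 and 9.82 in Hom-NMyc, 9.50 and 9.57 in Het-NMyc and 9.50 and 9.40 in WT-NMyc, against 8.95 and 8.98 in Hom-Ctrl, 8.88, 8.55 and 8.50 in Het-Ctrl and 8.89, 8.13 and 8.58 in WT-Ctrl. No Ctrl array reached an NMyc array, and Prdx3 rose by 0.91 (SE 0.11, limma adjusted p = 9.62e-06). The cytosolic Prdx1 was at 11.66 and 11.70 in Hom-NMyc, 11.45 and 11.57 in Het-NMyc and 11.52 and 11.48 in WT-NMyc, against 11.45 and 10.96 in Hom-Ctrl, 10.66, 10.87 and 10.10 in Het-Ctrl and 10.35, 10.35 and 10.06 in WT-Ctrl. Here the array labelled Hom-Ctrl replicate 1 reached the level of the lowest NMyc arrays, while the other Ctrl arrays lay at 10.96 or less. Prdx1 rose by 0.90 (SE 0.12, limma adjusted p = 2.39e-05). Prdx2, a second cytosolic peroxiredoxin, rose by 0.49 (SE 0.09). Prdx4, which works in the endoplasmic reticulum, differed by -0.18, with overlapping arrays, and did not pass.

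The glutathione peroxidases went both ways. Gpx4, which reduces lipid peroxides in membranes and thereby guards against ferroptosis, fell by 0.59 (SE 0.08, limma adjusted p = 4.13e-05), with all NMyc arrays between 10.03 and 10.35 and all Ctrl arrays between 10.64 and 10.99. Gpx1, the abundant cytosolic form, rose by 0.22 (SE 0.08, limma adjusted p = 0.0366), a call that was lost without Hom-Ctrl replicate 1 (adjusted p = 0.0988). Its values of 12.22 to 12.79 lay above the 99th percentile of all tested values (11.89), where the scale may be compressed. Gpx3, a secreted form, differed by -0.32 and Gpx7, of the endoplasmic reticulum, by -0.24, and neither passed.

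Of the 4 genes of glutathione synthesis and recycling, 3 rose. Gclc, the catalytic subunit of glutamate-cysteine ligase and the rate-limiting step of glutathione synthesis, was at 9.15 and 9.48 in Hom-NMyc, 8.78 and 9.14 in Het-NMyc and 8.93 and 9.03 in WT-NMyc, against 8.08 and 8.48 in Hom-Ctrl, 7.98, 8.07 and 8.19 in Het-Ctrl and 7.70, 8.39 and 8.20 in WT-Ctrl. All NMyc arrays were above all Ctrl arrays, and Gclc rose by 0.93 (SE 0.12, limma adjusted p = 1.4e-05). Its modifier subunit Gclm rose by 0.58 (SE 0.09) and glutathione synthetase, Gss, by 0.34 (SE 0.10, limma adjusted p = 0.0137). Glutathione reductase, Gsr, which returns oxidised glutathione to its reduced form, differed by 0.11 (SE 0.09) and did not pass.

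The 10 glutathione transferases split into 4 that rose, 3 that fell and 3 that did not pass. Gsto1, an omega-class transferase that also reduces dehydroascorbate, showed the largest difference of all members. It was at 9.87 and 9.995 in Hom-NMyc, 9.83 and 9.92 in Het-NMyc and 9.83 and 9.87 in WT-NMyc, against 8.18 and 8.31 in Hom-Ctrl, 8.73, 8.37 and 8.64 in Het-Ctrl and 8.64, 8.35 and 8.95 in WT-Ctrl. The lowest NMyc array, at 9.83, was above the highest Ctrl array, at 8.95, and Gsto1 rose 2.63-fold (1.40 on the log2 scale, SE 0.10, limma adjusted p = 4.71e-08). Gstm5 was at 6.59 and 6.90 in Hom-NMyc, 6.48 and 6.30 in Het-NMyc and 5.89 and 6.28 in WT-NMyc, against 6.27 and 5.89 in Hom-Ctrl, 5.31, 5.31 and 5.69 in Het-Ctrl and 6.002, 4.70 and 4.98 in WT-Ctrl. The arrays overlapped, and 1 WT-Ctrl value of 4.70 was near the background. Gstm5 rose by 0.83 (SE 0.17, limma adjusted p = 0.00116). Gstp1 rose by 0.56 and Gstm1 by 0.43. Both belong to clusters of near-identical genes, so their probe sets may also read transcripts of their neighbours.

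The membrane-bound transferases moved the other way. Mgst1 was at 10.38 and 10.50 in Hom-NMyc, 10.73 and 10.85 in Het-NMyc and 10.73 and 10.85 in WT-NMyc, against 11.15 and 10.69 in Hom-Ctrl, 12.06, 11.69 and 11.83 in Het-Ctrl and 12.07, 11.57 and 11.76 in WT-Ctrl. The Het and WT arrays were clearly apart by vector, whereas both Hom-Ctrl arrays were below all other Ctrl arrays. Mgst1 fell by 0.85 (SE 0.11, limma adjusted p = 1.04e-05). Mgst2, which can also make leukotriene C from glutathione, was at 10.23 and 10.39 in Hom-NMyc, 10.11 and 10.44 in Het-NMyc and 10.28 and 10.36 in WT-NMyc, against 11.40 and 10.96 in Hom-Ctrl, 11.68, 11.26 and 11.31 in Het-Ctrl and 11.73, 11.04 and 11.11 in WT-Ctrl. Every NMyc array was below every Ctrl array, and Mgst2 fell by 0.996 (SE 0.13, limma adjusted p = 1.18e-05). Gstk1, a transferase of mitochondria and peroxisomes, fell by 0.34 (SE 0.11, limma adjusted p = 0.0192), a call lost without Hom-Ctrl replicate 1 (adjusted p = 0.0642). The third membrane-bound form, Mgst3, differed by -0.01, Gstt1 by -0.21 and Gsta4 by 0.24, and none of them passed.

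**Figure D2:**
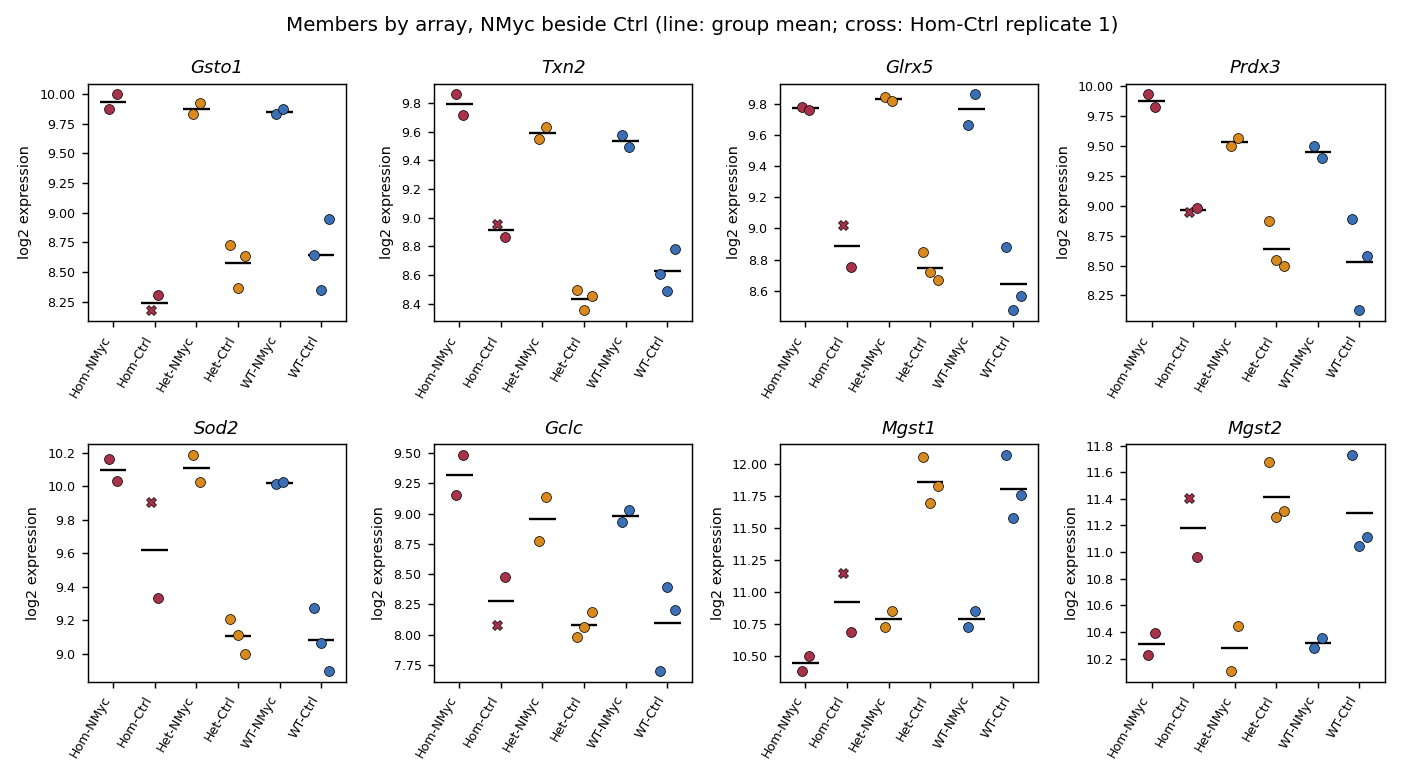
Log2 expression of 8 members in each of the 14 arrays, with NMyc beside Ctrl for the Hom, Het and WT cells. Each point is 1 array, each line is a group mean, and the cross is the array labelled Hom-Ctrl replicate 1. For Gsto1, Txn2, Glrx5, Prdx3, Sod2 and Gclc all NMyc points are above all Ctrl points, and for Mgst2 all are below, while Mgst1 overlaps through Hom-Ctrl.

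In the thioredoxin and glutaredoxin group, 6 of 8 members rose and 1 fell. Glrx5, a mitochondrial glutaredoxin of iron-sulfur cluster assembly, was at 9.78 and 9.76 in Hom-NMyc, 9.84 and 9.82 in Het-NMyc and 9.67 and 9.86 in WT-NMyc, against 9.02 and 8.75 in Hom-Ctrl, 8.85, 8.72 and 8.67 in Het-Ctrl and 8.88, 8.48 and 8.57 in WT-Ctrl. Its NMyc arrays were all above its Ctrl arrays, and it rose by 1.03 (SE 0.09, limma adjusted p = 3.14e-07). Txn2, the mitochondrial thioredoxin, was at 9.86 and 9.72 in Hom-NMyc, 9.55 and 9.63 in Het-NMyc and 9.57 and 9.49 in WT-NMyc, against 8.96 and 8.87 in Hom-Ctrl, 8.50, 8.36 and 8.45 in Het-Ctrl and 8.61, 8.49 and 8.78 in WT-Ctrl. It rose by 0.98 (SE 0.08, limma adjusted p = 1.57e-07), again with no overlap. The other risers were thioredoxin reductase Txnrd1 of the cytosol (0.79, SE 0.08), the mitochondrial Glrx2 (0.56), the cytosolic thioredoxin Txn1 (0.40) and the mitochondrial reductase Txnrd2 (0.33). Txn1 values of 11.44 to 12.22 reached past the 99th percentile of all values, like those of Gpx1. Sulfiredoxin, Srxn1, which repairs over-oxidised peroxiredoxins, fell by 0.49 (SE 0.09, limma adjusted p = 0.00037), and the cytosolic glutaredoxin Glrx differed by -0.14 and did not pass.

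The 6 members listed as mainly mitochondrial, Sod2, Prdx3, Txn2, Txnrd2, Glrx2 and Glrx5, were called higher in the averaged effect, with a median of 0.857, beside 18.2% of all probe sets and 37% of bright ones. Within the genotypes 3 of the 6 were called higher in Hom, 5 in Het and 5 in WT cells, and Txnrd2 in none. Of all probe sets 10.7%, 11.1% and 10.1% were called higher there. Gstk1, which also works in peroxisomes and was not on that list, fell. The list was chosen with these results known, and its count was not tested against the other members. The quinone reductase Nqo1, a widely used reporter gene of NRF2, fell by 0.65 (SE 0.11, limma adjusted p = 0.000172), and Nqo2 differed by 0.32 without passing (adjusted p = 0.0586).

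The regulators moved little. Nfe2l2 was at 8.40 and 8.39 in Hom-NMyc, 8.37 and 8.67 in Het-NMyc and 8.35 and 8.37 in WT-NMyc, against 8.36 and 8.41 in Hom-Ctrl, 8.39, 8.41 and 8.48 in Het-Ctrl and 8.27, 8.48 and 8.67 in WT-Ctrl. The groups overlapped throughout, and the averaged difference was -0.002 (SE 0.09, limma adjusted p = 0.989). Keap1 was at 8.81 and 8.85 in Hom-NMyc, 8.92 and 8.63 in Het-NMyc and 8.65 and 8.74 in WT-NMyc, against 8.59 and 8.82 in Hom-Ctrl, 8.37, 8.55 and 8.17 in Het-Ctrl and 8.18, 8.61 and 8.16 in WT-Ctrl. NMyc arrays tended to lie above Ctrl arrays with overlap, and Keap1 rose by 0.31 (SE 0.10, limma adjusted p = 0.0288). That call was lost in 9 of 26 alternative settings, among them quantile normalization (adjusted p = 0.137) and the fit without Hom-Ctrl replicate 1 (adjusted p = 0.0849).

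Within the genotypes, N-Myc moved 11 members past the threshold in Hom, 18 in Het and 20 in WT cells, and no member's response was called different between genotypes. Hom has 2 Ctrl arrays where Het and WT have 3. In Hom cells 8 members rose and 3 fell (10.7% and 7.01% of all probe sets), in Het cells 15 rose and 3 fell (11.1% and 8%), and in WT cells 15 rose and 5 fell (10.1% and 9.05%). The median difference over members was 0.149 in Hom, 0.418 in Het and 0.373 in WT cells. Without the array labelled Hom-Ctrl replicate 1, 7 members rose and 1 fell in Hom cells and the median was 0.165. Without Het-NMyc replicate 1 or 2 the Het count was 11, and without WT-NMyc replicate 2 the WT count was 13. Prdx3, Gclc, Gclm, Gsto1, Txn2, Txnrd1 and Glrx5 rose in all 3 genotypes (7 members, beside 6.57% of all probe sets and 14.8% of bright ones), and Gpx4 and Mgst2 fell in all 3 (beside 3.94% and 8.15%). These 9 members were all bright. Without Hom-Ctrl replicate 1 the Hom calls of Gclc, Gclm, Mgst2 and Srxn1 were lost and that of Sod2 was gained. Every NMyc array was above every Ctrl array for 10 members, where 10.5% of all probe sets and 23.5% of bright ones showed this. Without Hom-Ctrl replicate 1 there were 12, with Prdx1 and Txnrd2 added. Only Gpx4 and Mgst2 had every NMyc array below every Ctrl array, where 6.58% of all probe sets and 12.9% of bright ones did.

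The N-Myc response in Hom cells minus that in WT cells was called for 0 members, beside 0.0721% of probe sets called higher and 0.00901% lower. By limma, 1 member had an unadjusted p under 0.05, beside 8.54% of all probe sets. It was Prdx1, whose rise was 0.48 in Hom cells and 1.25 in WT cells. The difference was -0.77 (95% interval -1.42 to -0.12, adjusted p = 0.488), and -0.52 without the array labelled Hom-Ctrl replicate 1. Next was Mgst1, with a difference of 0.54 (adjusted p = 0.607). Between Hom and Het cells 0 members were called (0.0225% of probe sets higher, 0.00901% lower). Of the members, 4 had an unadjusted p under 0.05 by limma (6.92% of all probe sets did). They were Gstm1, at 0.63 (adjusted p = 0.573), Gpx7, at -0.79 (adjusted p = 0.595), Mgst1 and Gsta4. Between Het and WT cells 0 members and 0% of probe sets were called. Here 1 member, Gpx7, had an unadjusted p under 0.05 (0.61, adjusted p = 1), beside 3.29% of all probe sets, followed by Gstk1 (0.46). Gpx7 was at 6.81 and 6.23 in Hom-NMyc, 6.54 and 6.55 in Het-NMyc and 6.41 and 6.29 in WT-NMyc, against 7.33 and 6.85 in Hom-Ctrl, 6.29, 6.29 and 6.39 in Het-Ctrl and 6.84, 6.39 and 6.95 in WT-Ctrl. Its NMyc and Ctrl arrays overlapped. Gstk1 was at 5.15 and 5.38 in Hom-NMyc, 5.18 and 5.39 in Het-NMyc and 4.87 and 5.39 in WT-NMyc, against 5.87 and 5.60 in Hom-Ctrl, 5.13, 5.50 and 5.38 in Het-Ctrl and 5.69, 5.49 and 5.73 in WT-Ctrl, also with overlap. Gstm1 was at 11.80 and 11.78 in Hom-NMyc, 11.35 and 11.68 in Het-NMyc and 11.31 and 11.59 in WT-NMyc, and both Hom-NMyc arrays were above the other NMyc arrays.

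N-Myc also went with a different mix of lineage transcripts. The mean log2 level over 6 measured monocyte and macrophage markers was 7.785 to 8.157 in NMyc arrays and 9.089 to 10.667 in Ctrl arrays. For 4 megakaryocyte markers it was 7.218 to 7.472 in NMyc and 9.375 to 9.954 in Ctrl arrays, for 9 neutrophil markers 11.023 to 11.252 and 11.513 to 12.169, and for 7 mast cell markers 10.007 to 10.364 and 10.842 to 11.51. The neutrophil mean covers markers that did not all move alike, and Mpo, on that list, was called higher with N-Myc. The 5 erythroid markers were at 7.437 to 7.586 in NMyc and 6.89 to 7.361 in Ctrl arrays, and the 8 progenitor markers at 9.381 to 9.728 and 9.786 to 9.939. Marker lists of eosinophils (8.107 to 8.173 in Hom-NMyc, 9.348 to 9.425 in Hom-Ctrl arrays) were lower with N-Myc as well. The B lymphoid, T and NK cell and stromal lists overlapped between NMyc and Ctrl arrays. Only among the progenitor markers was there 1 that stayed at or below the median of the negative controls in every array of a group, in WT-NMyc and in Hom-Ctrl. The part of this mix in the members' differences was not tested, and in bulk samples fewer cells of a type and less RNA per cell cannot be told apart.

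Under the Ctrl vector, Hom arrays showed more RNA of several antioxidant enzymes than WT arrays and less of Mgst1. The calls depended on the arrays used, and 1 of the 2 Hom-Ctrl arrays had raised Mycn. In Hom-Ctrl against WT-Ctrl, 6 members rose (Gsta4, Gstp1, Cat, Prdx1, Gss and Prdx2) and 1, Mgst1, fell, beside 2.03% and 1.88% of all probe sets. The differences lay between -0.88 and 0.95 with a median of 0.351, against -0.001 over all probe sets. Of the 38 members 32 were positive, where 49.9% of all probe sets and 52.4% of bright ones were. Without the array labelled Hom-Ctrl replicate 1, 29 members were positive. Among bright probe sets 3.82% were called higher and 3.39% lower, beside 5 and 1 of the 31 bright members. Gss, among those 5, lay below the 95th percentile of the negative controls in every WT-Ctrl array. It counts as bright through other arrays, so its place there can depend on the difference itself. Without the array labelled Hom-Ctrl replicate 1, which leaves 1 Hom-Ctrl array assumed to vary like the other groups, Cat and Gstp1 rose, Mgst1 fell and the median was 0.302. Without Hom-Ctrl replicate 2, 1 call was left, without WT-Ctrl replicate 3 there were 4, and a fit to the Hom-Ctrl and WT-Ctrl arrays alone gave 0.

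Gsta4, an alpha-class transferase that detoxifies aldehydes from lipid peroxidation, was at 6.54 and 6.32 in Hom-Ctrl, 5.63, 5.57 and 5.53 in Het-Ctrl and 5.61, 5.44 and 5.57 in WT-Ctrl. Both Hom-Ctrl arrays were above the 6 other Ctrl arrays, at a level below the 95th percentile of the negative controls. Gsta4 rose by 0.89 (SE 0.16, limma adjusted p = 0.00638), and by 0.78 without the array labelled Hom-Ctrl replicate 1 (adjusted p = 0.0527). Gstp1, a pi-class transferase abundant in many tissues, was at 9.64 and 9.81 in Hom-Ctrl, 9.42, 9.48 and 9.21 in Het-Ctrl and 9.10, 8.98 and 8.74 in WT-Ctrl. The groups did not overlap, and the Het-Ctrl arrays lay between the other groups. Gstp1 rose by 0.78 (SE 0.15, limma adjusted p = 0.00914), and by 0.87 without that array (adjusted p = 0.0253).

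Cat was at 11.04 and 11.50 in Hom-Ctrl, 10.50, 10.67 and 10.47 in Het-Ctrl and 10.36, 10.67 and 10.32 in WT-Ctrl. The Hom-Ctrl arrays were above all others, and Cat rose by 0.82 (SE 0.17, limma adjusted p = 0.0138), or by 1.05 without the first Hom-Ctrl array (adjusted p = 0.0122). Prdx1 was at 11.45 and 10.96 in Hom-Ctrl, 10.66, 10.87 and 10.10 in Het-Ctrl and 10.35, 10.35 and 10.06 in WT-Ctrl. The Hom-Ctrl arrays were again the highest, with the array that carried raised Mycn at the top. Prdx1 rose by 0.95 (SE 0.21, limma adjusted p = 0.0185), and without that array the difference was 0.70 and did not pass (adjusted p = 0.154). Gss, which completes glutathione synthesis, was at 7.49 and 7.56 in Hom-Ctrl, 7.18, 6.72 and 7.004 in Het-Ctrl and 6.84, 6.86 and 6.77 in WT-Ctrl. In WT-Ctrl Gss lay below the 95th percentile of the negative controls. It rose by 0.70 (SE 0.17, limma adjusted p = 0.0296), a call lost without that array (adjusted p = 0.0914) and with the replicate number as a block (adjusted p = 0.0625).

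Mgst1 was at 11.15 and 10.69 in Hom-Ctrl, 12.06, 11.69 and 11.83 in Het-Ctrl and 12.07, 11.57 and 11.76 in WT-Ctrl, so both Hom-Ctrl arrays were below every other Ctrl array. It fell by 0.88 (SE 0.18, limma adjusted p = 0.013), and by 1.12 without the array labelled Hom-Ctrl replicate 1 (adjusted p = 0.0129). The seventh call was Prdx2, which rose by 0.58 (SE 0.15, limma adjusted p = 0.0478), and its difference without that array was 0.67 (adjusted p = 0.0908). Of the other members, Nqo1 differed by 0.57, Sod2 by 0.54, Sod1 by 0.45 and Srxn1 by 0.43, none of which passed. The mitochondrial members, with a median of 0.36, had no call.

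**Figure D3:**
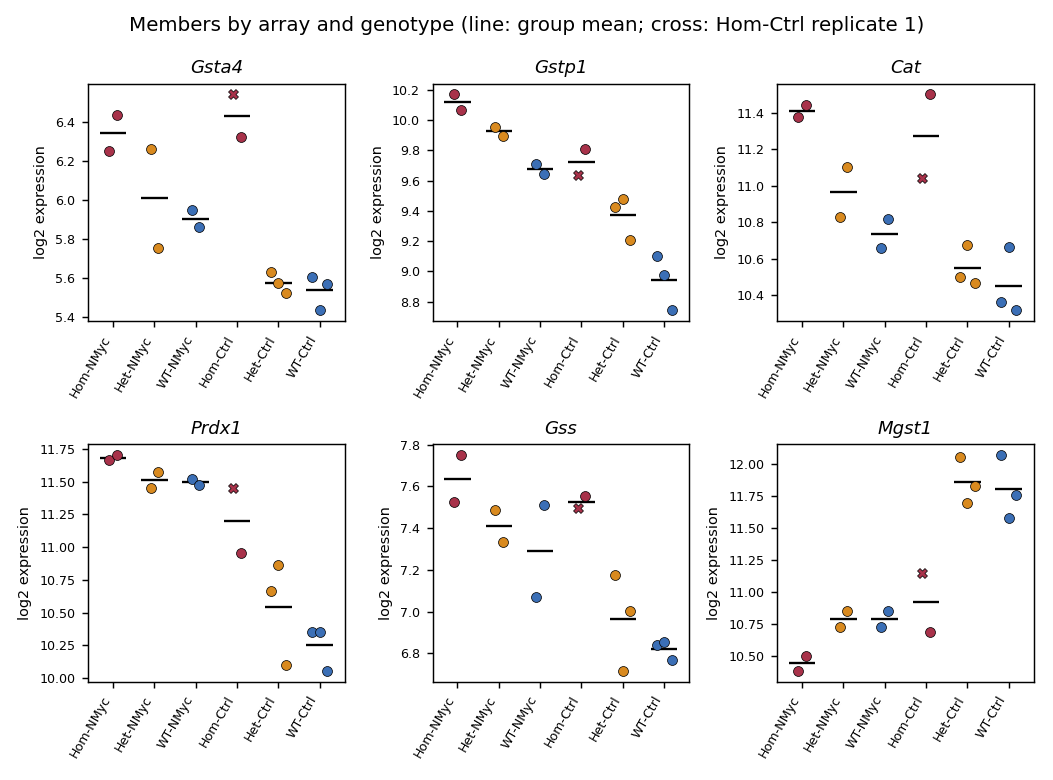
Log2 expression of 6 members in each array by genotype, with the NMyc arrays on the left and the Ctrl arrays on the right of each panel. Each point is 1 array, each line is a group mean, and the cross is the array labelled Hom-Ctrl replicate 1. Among Ctrl arrays, Hom points are above all Het and WT points for Gsta4, Gstp1, Cat, Prdx1 and Gss and below them for Mgst1.

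Against Het-Ctrl cells, Hom-Ctrl cells had more Gsta4 and Cat RNA and less Mgst1 RNA. Gsta4 rose by 0.85 (SE 0.16, limma adjusted p = 0.0116), Cat rose by 0.72 (SE 0.17, adjusted p = 0.0365) and Mgst1 fell by 0.94 (SE 0.18, adjusted p = 0.0128). These 2 calls higher and 1 lower stand beside 1.34% and 1.06% of all probe sets, and the median over members was 0.326. Without the array labelled Hom-Ctrl replicate 1, Cat (0.95, adjusted p = 0.0233) and Mgst1 (-1.17, adjusted p = 0.0144) passed, and Gsta4 did not (0.74, adjusted p = 0.0762). Without Hom-Ctrl replicate 2 there were 0 calls, without Het-Ctrl replicate 3 there was 1, and with a trended and robust spread there were 8. The comparisons with WT-Ctrl and Het-Ctrl share the Hom-Ctrl arrays. In Het-Ctrl against WT-Ctrl 0 members and 0% of probe sets were called by limma. Of the members, 3 had an unadjusted p under 0.05 (4.21% of all probe sets did). They were Gstp1, with a difference of 0.43 (95% interval 0.15 to 0.71, adjusted p = 0.999), Gstm1, with 0.36 (0.07 to 0.65, adjusted p = 0.999), and Gpx7, with -0.40.

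Gstm1, a mu-class transferase, was at 11.002 and 11.09 in Hom-Ctrl, 11.32, 11.30 and 11.57 in Het-Ctrl and 11.10, 10.91 and 11.11 in WT-Ctrl. The Het-Ctrl arrays were above both other groups for this gene. The neutrophil markers averaged 11.513 to 11.672 in Hom-Ctrl and 11.917 to 12.089 in WT-Ctrl arrays, the mast cell markers 11.223 to 11.51 and 10.893 to 11.063, and the macrophage markers 9.089 to 10.208 and 10.044 to 10.667. The T and NK cell markers averaged 7.156 to 7.431 in Hom-Ctrl and 6.542 to 7.123 in WT-Ctrl arrays, and the progenitor markers 9.786 to 9.796 and 9.858 to 9.869. All of these but the macrophage markers were without overlap between Hom-Ctrl and WT-Ctrl. The eosinophil, megakaryocyte, erythroid, B lymphoid and stromal lists overlapped. With 2 against 3 arrays a lack of overlap is weak evidence, and it was not tested. The part of these shifts in the members' differences was not tested.

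With N-Myc, no genotype comparison gave a call. In Hom-NMyc against WT-NMyc 0 members and 0% of probe sets were called by limma. Of the members, 6 had an unadjusted p under 0.05 (8.43% of all probe sets did). Nqo1 was at 7.34 and 7.97 in Hom-NMyc, 7.37 and 7.38 in Het-NMyc and 6.59 and 6.94 in WT-NMyc. Both Hom-NMyc arrays were above both WT-NMyc arrays, one of them only level with Het-NMyc. The Hom minus WT difference was 0.89 (95% interval 0.47 to 1.31, adjusted p = 0.251). Cat was at 11.38 and 11.44 in Hom-NMyc, 10.83 and 11.10 in Het-NMyc and 10.66 and 10.82 in WT-NMyc, highest in both Hom-NMyc arrays, with a difference of 0.67 (0.28 to 1.06, adjusted p = 0.354). The median over members was 0.198, and 32 of 38 were positive, where 50.4% of all probe sets and 64.1% of bright ones were.

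Het-NMyc against WT-NMyc also gave 0 members and 0% of probe sets. Nqo1 alone had an unadjusted p under 0.05 (0.61, adjusted p = 1), beside 2.59% of all probe sets, followed by Gstt1 (-0.29). Gstt1 was at 6.24 and 6.30 in Hom-NMyc, 6.16 and 6.18 in Het-NMyc and 6.62 and 6.30 in WT-NMyc, with both Het-NMyc arrays the lowest. In Hom-NMyc against Het-NMyc 0 members and 0% of probe sets were called. Gclm (0.47, adjusted p = 0.978) and Cat (0.44) had an unadjusted p under 0.05, where 4.92% of all probe sets did. Gclm was at 10.78 and 10.91 in Hom-NMyc, 10.25 and 10.51 in Het-NMyc and 10.38 and 10.44 in WT-NMyc, so that both Hom-NMyc arrays were above the rest.

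The comparisons of Hom with WT under the NMyc vector and under the Ctrl vector share no arrays, and their directions can be set side by side. The Hom mean was above the WT mean under both vectors for 29 of 38 members, where 28.4% of all probe sets and 39.9% of bright ones did so, and for 27 without the array labelled Hom-Ctrl replicate 1. The Hom means of Gstt1, Mgst1 and Mgst2 were below the WT means under both, where 28.1% of all probe sets and 23.4% of bright ones were. Without that array 4 members were. Mgst2 was close to level, at -0.006 (SE 0.23) under the NMyc vector and -0.11 (SE 0.21) under the Ctrl vector. The group means ran in the order Hom over Het over WT under both vectors for 14 members, where 6.91% of all probe sets and 13.1% of bright ones did. These were Cat, Prdx1, Prdx2, Prdx3, Gpx3, Gss, Gsta4, Gstm5, Gstp1, Txn1, Txnrd2, Srxn1, Nqo1 and Keap1. Het-Ctrl and WT-Ctrl, neighbours in that order, gave no call for any of them. Genes share arrays, so these counts describe the samples and carry no test.

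**Figure D4:**
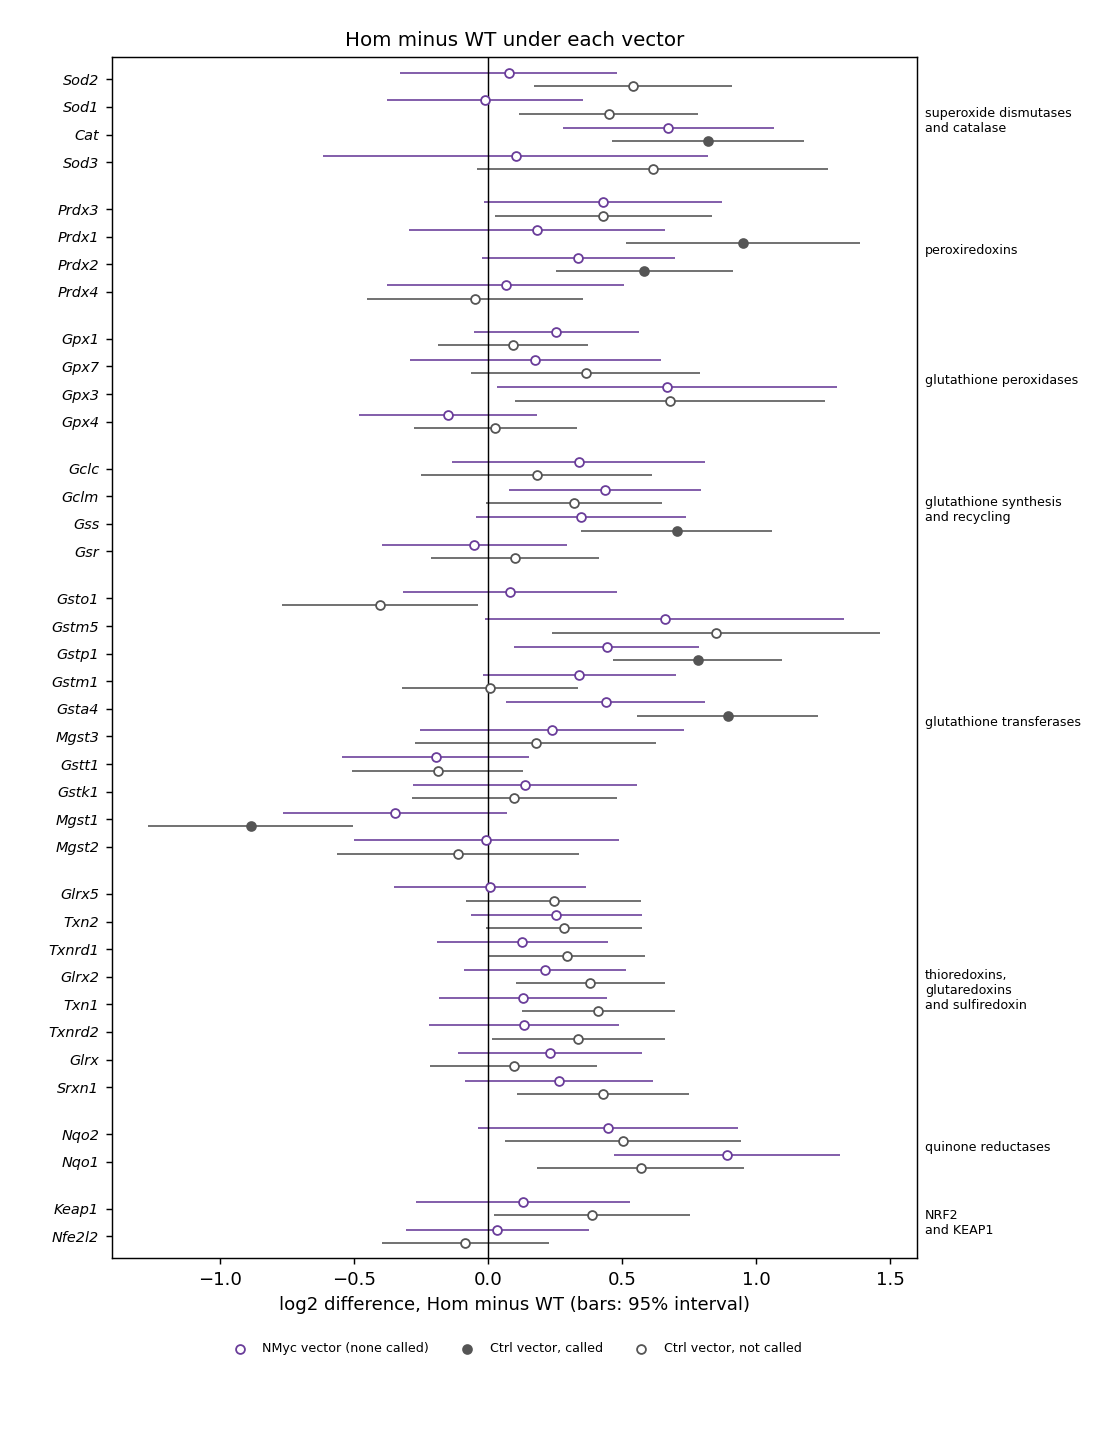
Difference in log2 expression, Hom minus WT, for each of the 38 measured members under the NMyc vector and under the Ctrl vector, grouped by role. Bars are 95% intervals and filled points passed the test. Most points lie right of 0 under both vectors, Mgst1 lies to the left under both, and filled points occur only under the Ctrl vector.

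The sample codes in the labels fall into 3 runs of consecutive numbers, which the labels do not call batches. Run 1 held no NMyc array and run 3 no Hom-Ctrl array, and the main fit did not adjust for run. Arrays of the same run correlated, as deviations from group means, at -0.014 to 0.266 over 28 pairs, 9 of them over 0.1. Some of these pairs repeat a value, because deviations in a group of 2 arrays mirror each other. Over all 38 members, the median N-Myc difference was 0.126 in Hom cells within the 1 run that held both vectors (21 positive), 0.3 and 0.362 in Het cells in 2 runs (25 and 29 positive) and 0.352 and 0.482 in WT cells in 2 runs (27 and 25 positive). The median of Hom-Ctrl minus WT-Ctrl was 0.258 and 0.27 in the 2 runs that held both groups (30 and 31 positive), and that of Hom-Ctrl minus Het-Ctrl was 0.263 and 0.231 (29 and 28 positive).

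Other genes of redox metabolism did not all move with the members under N-Myc. Their counts stand beside 18.2% of all probe sets called higher and 15.5% lower, or 37% and 24.2% of bright ones. The counts of the lists were not tested against these shares. Of 16 measured NRF2 target genes outside the list, 3 rose and 6 fell (median -0.192). Abcc4, a transporter, rose by 0.90 and the carbonyl reductase Cbr1 by 0.28, while Sqstm1, an autophagy receptor that binds KEAP1, fell by 1.04 and the biliverdin reductase Blvrb by 1.001. On a list of 11 genes headed NRF2 partners and repressors, 0 rose and 6 fell. The list also held Txnip, an inhibitor of thioredoxin rather than of NRF2, which fell by 1.79. Next came Sqstm1, already counted among the targets. Of 12 genes listed under NADPH supply, 7 rose and 0 fell. NADPH is the reductant of both the glutathione and thioredoxin systems, and not every listed gene makes it, Mthfd1l among them. The folate enzymes Mthfd1 (1.62) and Mthfd1l (1.22) had the largest rises on that list.

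Among 8 genes that build selenocysteine into proteins such as Gpx4 and Txnrd1, 5 rose and 1 fell. Eefsec, the elongation factor for selenocysteine, rose by 0.90 and Sephs1 by 0.80, while Secisbp2l fell by 0.35. Of 26 further antioxidant enzymes 9 rose and 3 fell, with Blvra (0.88) and Park7 (0.74) at the top and Gstm4 (-0.55) and Msra (-0.47) at the bottom. Of 6 genes of the phagocyte oxidase and myeloperoxidase, Mpo rose by 0.51 and 3 fell, led by Cybb, the catalytic subunit, at -1.06 and Ncf4 at -0.42. In the list of cystine uptake and glutathione breakdown 1 of 11 rose, Cth (0.60), and 3 fell, with the peptidases Dpep2 at -3.07 and Anpep at -2.79. Without the array labelled Hom-Ctrl replicate 1 the counts of rises and falls were 3 and 4 for NRF2 targets, 0 and 5 for partners, 7 and 0 for NADPH supply, 4 and 1 for selenocysteine genes and 7 and 2 for further enzymes.

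**Figure D5:**
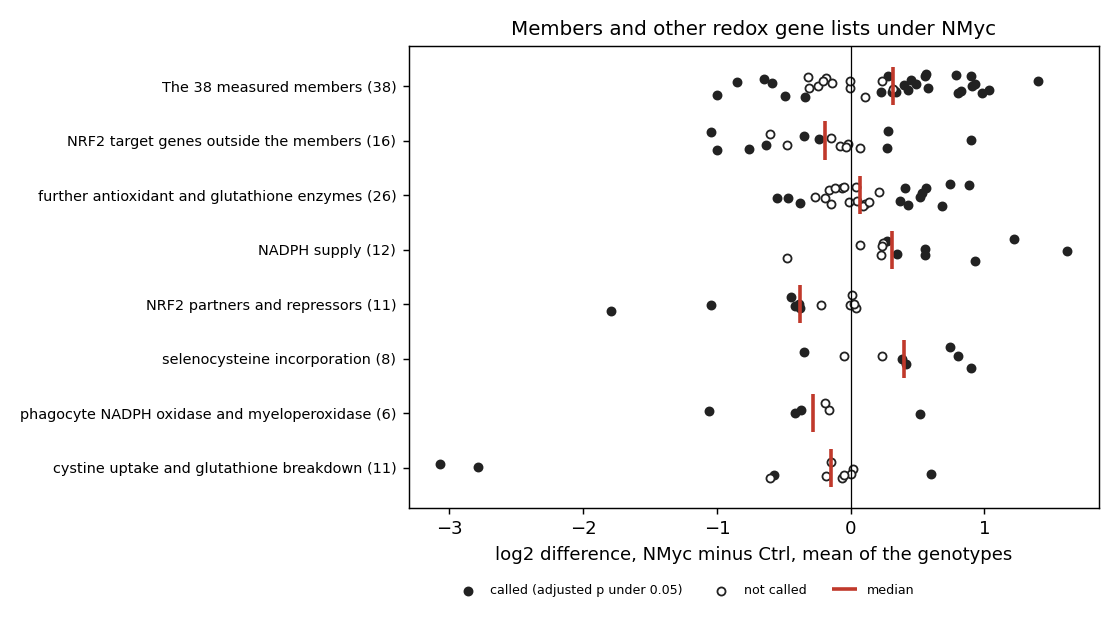
Difference in log2 expression, NMyc minus Ctrl averaged over the genotypes, for the 38 members and 7 other lists of redox genes. Each point is 1 gene, filled where it passed the test, red lines are medians, and the number measured stands in brackets. The medians of the members (0.314), NADPH supply (0.312) and selenocysteine incorporation (0.399) lie above 0 and those of NRF2 targets (-0.192) and NRF2 partners (-0.381) below.

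In Hom-Ctrl against WT-Ctrl, 3 of the 16 NRF2 targets rose and 1 fell. Of all probe sets 2.03% were called higher and 1.88% lower, and of bright ones 3.82% and 3.39%. The epoxide hydrolase Ephx1 rose by 1.17 and Cbr1 by 0.83, and Abcc4 fell by 0.72. Ephx1 lay below the 95th percentile of the negative controls in all Hom-Ctrl and WT-Ctrl arrays, and Cbr1 in all WT-Ctrl arrays. Without the array labelled Hom-Ctrl replicate 1 the call of Cbr1 remained (0.84, adjusted p = 0.0229). Of the further enzymes Gsta3, an alpha-class transferase like Gsta4, rose by 0.72 and the methionine sulfoxide reductase Msra fell by 1.21. Like Ephx1, Gsta3 was dim in all of these arrays. In the NADPH list the mitochondrial Idh2 rose by 0.67, and the folate enzymes Mthfd2 and Mthfd1l fell by 0.81 and 0.76. Ncf4 fell by 1.17, Cth and Chac1 each fell by 1.20 and Ggt7 rose by 0.56. The lists of NRF2 partners and of selenocysteine genes had 0 calls. Without that array Msra, Mthfd2, Ncf4, Chac1 and Ggt7 also passed, and Ephx1, Abcc4, Gsta3, Idh2, Mthfd1l and Cth did not.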

How the data were processed

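Per the labels' protocols, total RNA was purified on columns and labelled with an Affymetrix whole-transcript kit. The authors deposited log2 expression values, 1 for each probe set on each array. The submitters' processing notes name Affymetrix Expression Console. Which version, summary and normalization it used is, in the sources used here, not given. Values were used without further scaling. Tested values ran from 2.391 to 13.47, and array medians differed by at most 0.084, so a change shared by most transcripts could have been removed before deposit. Values at the top of the range may be compressed and those near the negative controls (medians 4.391 to 4.866) are uninformative.

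Of 28846 probe sets, 6640 control sets, recognised by ID, were left out and 22206 were tested. Symbols came from the platform annotation, checked against a RefSeq table (GRCm38.p6) that changed 0 of them. Of the tested sets 19572 had 1 symbol and 2634 were not listed. Each measured member had 1 probe set. Tests used limma 3.58.1 in R 4.3.3, with 6 group means fitted to all 14 arrays, eBayes (8 residual and 7.3 prior degrees of freedom), 13 comparisons and Benjamini-Hochberg adjustment over all tested sets, and the code was tested on simulated data. The members and lists were chosen with earlier results of these data known.

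Values in every array were given for the 10 called members with the largest averaged N-Myc difference, for up to 6 called members with the smallest p in each genotype comparison and each difference of N-Myc effects (the first 2 where none was called), and for Mycn, Nfe2l2 and Keap1. From each other list, the 2 largest called changes each way were named. Prdx2, called seventh in one comparison, and members given without array values are named by group differences. Samples with the same replicate number correlated, as deviations from group means, at -0.133 to 0.266 over 31 pairs, 7 of them over 0.1. Deviations in a group of 2 arrays mirror each other, so some of these pairs repeat a value. The main fit did not pair samples by number. All 3 pairs of Het-Ctrl with WT-Ctrl were over 0.1 (0.235, 0.266 and 0.249), where a replicate block also gave 0 calls. Hom-Ctrl replicate 1 correlated at 0.194 with WT-Ctrl replicate 1 and at 0.142 with Het-Ctrl replicate 1. For replicate 2 these values were 0.026 and 0.095. Alternatives changed the normalization, the control sets, the filter, the variance model, the blocks, the call rule and the arrays used.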

Additional observations from a re-analysis of the deposited data

How the results depend on the processing

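The counts of members called kept within 1.5 times of the values above under most of 27 alternatives per comparison. A call rule that also asks for a 1.5-fold change gave 13 in place of 27 members for the averaged N-Myc effect, and leaving out each array in turn gave 23 to 28. For N-Myc in WT cells, a fit to those arrays alone gave 13, and leaving out arrays gave 13 to 19. For N-Myc in Het cells leaving out arrays gave 11 to 19, and in Hom cells 8 to 13. Hom-Ctrl against WT-Ctrl gave 0 in a fit to those groups alone and 1 to 9 with an array left out. Hom-Ctrl against Het-Ctrl gave 6 with a filter at the 95th percentile of the negative controls, 8 with trended and robust spread, 1 in a fit to those groups alone, 1 with code runs 2 and 3 alone and 0 to 4 with an array left out. The causes were not tested. With the replicate number as a block, the counts were 25 for the averaged effect, 13, 20 and 21 in Hom, Het and WT cells, 5 for Hom-Ctrl against WT-Ctrl and 4 for Hom-Ctrl against Het-Ctrl, and 0 for the other comparisons, as without it. Comparisons with 0 calls stayed at 0 under all alternatives run.

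Over 35 results for single members, 849 of 903 alternative values kept direction and side of the threshold, 47 lost the call and 7 changed sign. All 7 were the near-zero averaged difference of Nfe2l2, which was 0.0455 with arrays shifted to the same median, 0.03891 with the replicate block and -0.0508 to 0.0464 with an array left out. The dim members Sod3, Gpx7, Gstk1, Gstt1, Mgst3, Gsta4 and Gstm5 have little signal over background, which limits what their values can show. Averaging all probe sets of a symbol changed nothing because each member had 1.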
